A study of Mus musculus with 2 samples.

Results

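Hox genes encode homeodomain transcription factors that give cells of the body axis their position from head to tail. The 39 Hox genes of the mouse lie in 4 clusters, and genes at the same place in different clusters form a paralogue group, numbered 1 to 13 from the end expressed farthest forward. In the neural tube, their expression begins in the hindbrain and runs down the spinal cord, and the forebrain and midbrain are normally free of it at this stage. Hox signals in a brain sample can therefore show how far back along the axis its neural tissue reached.

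The genes described here are those of the Hoxa, Hoxb, Hoxc and Hoxd clusters whose symbol ends in the paralogue number and which have a probe set annotated to that symbol alone. They number 33 of the 18194 genes named on the array, each read from its probe set with the highest mean signal. Other Hox genes were not analysed here as single genes. The study put total RNA from midgestation mouse brain (stage label E10.5, strain label C57BL/6) on Affymetrix 3' expression arrays. Its groups are KO (knockout) and WT (wild type), with 1 array each. The gene that was knocked out, the number of embryos pooled and the level at which the brain was cut from the spinal cord are not given in the labels, and their sample titles name the embryo while the tissue field names the brain. With 1 array per group no difference between KO and WT could be tested, and the number of arrays limits the precision.

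Signals are the authors' linear probe set intensities, and the whole table ran from 0.03 to 5983 in KO and from 0.01 to 6549 in WT, with medians of 13.2 in both. The files used here hold no detection calls. Olfactory receptor genes, which serve smell in the nose and are taken as largely silent in embryonic brain, therefore gave a background level. It was the 95th percentile of their 43 probe sets (38 genes), 7.99 signal units in the KO array and 6.87 in the WT array. Above it lay 68.4% of all named genes in KO and 70.3% in WT. The arrays also differed in sex-linked transcripts in the same way as in genotype. Xist, the RNA that silences an X chromosome in females, read 2022 in KO and 5.19 in WT, and the Y-linked genes Eif2s3y, Kdm5d and Uty read 0.270 to 2.21 in KO and 91.0 to 254 in WT. Genotype and sex-linked signal cannot be told apart in any difference below.

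Nearly all Hox genes gave no signal above background in either brain. Of the 33, 27 lay at or below the background level in both arrays. Only 3 were above it in KO and 4 in WT, and Hoxa5 alone in both. At the 99th percentile of the olfactory receptors, 1 (Hoxa5) was left in KO and 2 (Hoxa5 and Hoxc6) in WT, and at the 90th, 8 passed in WT. The olfactory receptor probe sets that set the level were above it in 3 of 43 cases in each array (6.98%), as the percentile fixes by construction. Read from 1 probe set per gene like the Hox genes, 3 of the 38 olfactory receptor genes (7.9%) were above it in each array, also largely by construction. The Hox signals had a median of 1.90 in KO (range 0.110 to 27.0) and of 1.87 in WT (0.120 to 37.4). Those of the 38 olfactory receptor genes had medians of 1.53 and 1.93 and reached 9.87 and 10.1. Probe sets differ in how strongly they bind their target, so these signals do not rank Hox genes by amount of RNA. In bulk tissue, fewer cells that express a gene and less RNA per cell cannot be told apart. No array of a Hox-expressing tissue was analysed here, and whether each probe set would report its transcript was not tested.

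**Figure D1:**
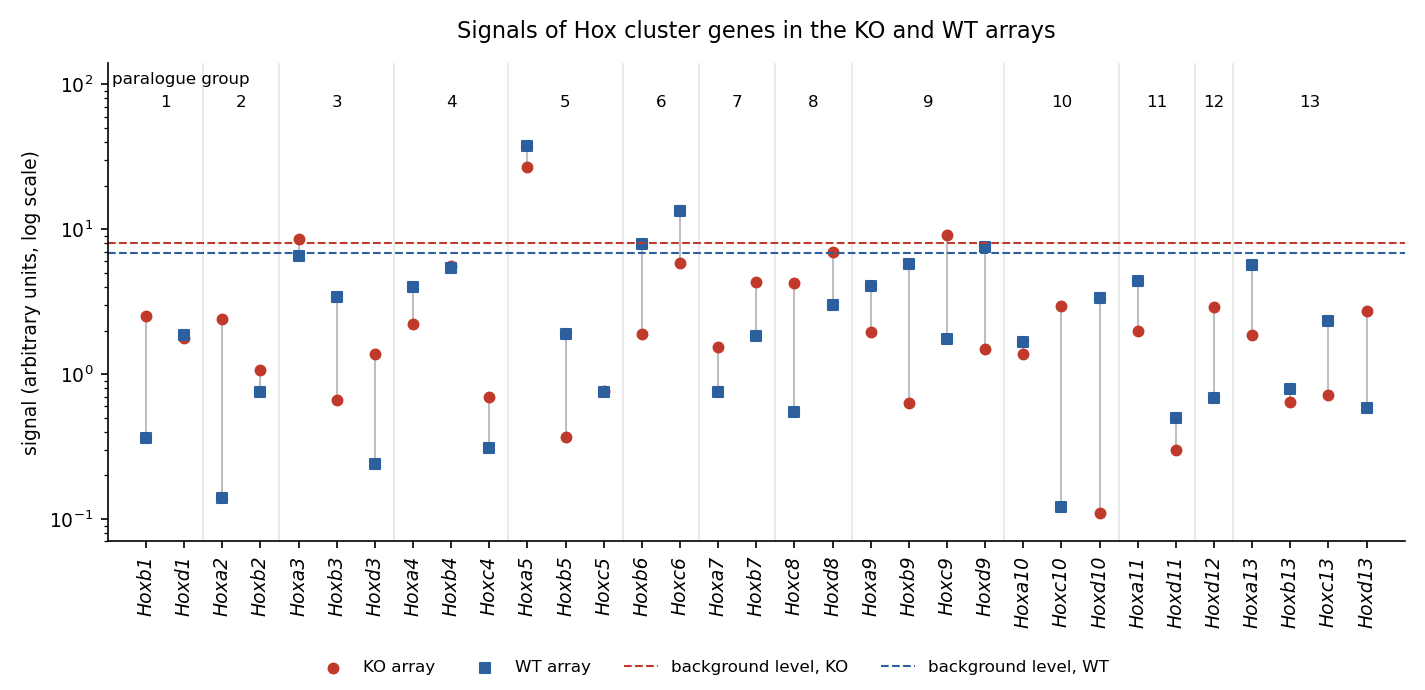
Signal (arbitrary units, log axis) of each of the 33 Hox genes in the KO array (circles) and the WT array (squares), ordered by paralogue group, with a grey line joining both values of a gene. Dashed lines mark the background levels of 7.99 in KO and 6.87 in WT, and Hoxa5 is the only gene with both points above its line.

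Paralogue groups 1 to 4 hold the genes that mark the hindbrain. Of 10 measured, 9 were at or below background in both arrays. Hoxb1, which specifies the fourth hindbrain segment, read 2.53 in KO and 0.360 in WT, and Hoxd1 read 1.78 and 1.87. Hoxa2, the Hox gene expressed farthest forward in the neural tube, read 2.42 in KO and 0.140 in WT. Hoxb2, which acts in the same region, read 1.07 and 0.75. These values all lie within the range of the olfactory receptor genes, so neither array measured the Hox genes of the anterior hindbrain above background. No fold is given where both signals are at background.

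The regions just before the starts of Hoxa2 and Hoxb1 are printed as examples from the Hox genes of the anterior hindbrain. Both hold a match to the motif named below. Hox proteins bind DNA together with Pbx cofactors, and an autoregulatory element of this kind is known upstream of Hoxb1. The capitals mark matches to the composite Pbx and Hox motif TGATNNAT on either strand. Hoxa5, the gene above background in both arrays, is printed for comparison and has no match. The sequences are RefSeq's (build GRCm38.p6), 250 bases up to the annotated start, read 5′ to 3′ on the gene's strand. Hoxa2 is at chr6:52164832-52165081 (minus strand), Hoxb1 at chr11:96365508-96365757 (plus strand) and Hoxa5 at chr6:52204588-52204837 (minus strand).
Hoxa2: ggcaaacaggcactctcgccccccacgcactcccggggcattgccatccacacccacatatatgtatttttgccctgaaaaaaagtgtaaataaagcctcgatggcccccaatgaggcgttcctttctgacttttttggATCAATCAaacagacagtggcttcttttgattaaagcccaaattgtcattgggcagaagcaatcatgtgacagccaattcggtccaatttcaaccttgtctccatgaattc
Hoxb1: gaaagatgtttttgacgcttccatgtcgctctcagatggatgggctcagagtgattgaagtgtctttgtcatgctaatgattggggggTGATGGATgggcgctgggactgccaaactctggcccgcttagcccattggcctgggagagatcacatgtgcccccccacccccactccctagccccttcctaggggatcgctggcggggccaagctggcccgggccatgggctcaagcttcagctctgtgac
Hoxa5: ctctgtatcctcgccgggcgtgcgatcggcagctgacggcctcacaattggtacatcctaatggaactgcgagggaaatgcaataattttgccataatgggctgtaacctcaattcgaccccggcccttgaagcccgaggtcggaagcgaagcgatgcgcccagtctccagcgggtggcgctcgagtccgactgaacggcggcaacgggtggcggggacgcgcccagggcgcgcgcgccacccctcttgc

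The match in Hoxb1 lies 162 to 155 bases before the start, and that in Hoxa2, on the other strand, 111 to 104 bases before it. Over the window of 300 bases that the table holds, 3 of 21 promoters of 19 Hox genes (14.3%) had the motif, against 8.85% of 32851 promoters of all genes, and the remaining match was in Hoxd11. Hox promoters had a median of 15 CG dinucleotides in that window (range 4 to 45), against 7 for all promoters. These counts describe letters in the window and say nothing of factor binding in these brains.

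Group 3 genes, whose forward limit lies further back in the hindbrain, included a single gene past background. Hoxa3, needed for the thymus, parathyroid and caudal hindbrain, read 8.62 in KO and 6.51 in WT, above background in KO only. Its KO signal was 1.25-fold the WT background level, which was taken as a lower bound on the fold between arrays. The other 3 Hoxa3 probe sets read 0.470 to 3.46 in KO and 1.18 to 6.35 in WT, all at background, and each was lower in KO where the first was higher. Hoxb3 read 0.660 and 3.41, and Hoxd3 1.37 and 0.240.

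Group 4 genes, which are switched on at the back of the hindbrain, were at background throughout. Hoxa4 read 2.22 in KO and 3.98 in WT. Hoxb4, a regulator of blood stem cells as well as of the caudal hindbrain, read 5.59 and 5.42, and its other probe set 0.310 and 3.60. Hoxc4 read 0.690 and 0.310. Another 3 probe sets carry a pair of Hox symbols, among them those for Hoxd4 and Hoxb8, and their highest signal in either array was 3.64.

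Groups 5 to 9 cover the neck and trunk, where these genes set the identity of vertebrae and of motor neuron columns. Of 13 genes, 8 were at or below background in both arrays, and 5 were above it in at least 1. Hoxa5, which acts in the lung and the neck skeleton, read 27.0 in KO and 37.4 in WT, a ratio of 1.38 towards WT. This signal comes from a probe set of a type (suffix _x_at) that can match other transcripts. The second Hoxa5 probe set read 0.560 and 0.670, so the gene's probe sets disagree on whether it is above background.

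Other trunk genes passed background in a single array. Hoxc6, expressed at the level of the forelimb, read 5.83 in KO and 13.3 in WT. Its WT signal was 1.66-fold the KO background level, which was taken as a lower bound on the fold between arrays. Its second probe set read 7.64 and 7.32 and its remaining one 0.710 and 1.37, so the difference was not shared among them. Hoxc9, which sets the thoracic level of spinal motor neurons, read 9.16 in KO and 1.74 in WT. Its KO signal was 1.33-fold the WT background level, taken as a lower bound in the same way. Hoxb6 (1.90 in KO, 7.95 in WT) and Hoxd9 (1.49 and 7.52) passed in WT only, at signals below the KO background level, so no bound can be given. Of the 5 genes, Hoxc9 alone was higher in KO. For genes that passed in a single array, passing there largely set the direction. The background level was also lower in WT (6.87) than in KO (7.99), so this count is not a result about direction.

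The remaining trunk genes lay at background in both arrays. In group 5 these were Hoxb5 (0.370 in KO, 1.88 in WT) and Hoxc5 (0.770 and 0.75). In groups 7 and 8, Hoxa7, Hoxb7, Hoxc8 and Hoxd8 ranged from 1.55 to 6.99 in KO and from 0.550 to 2.98 in WT. All of these group 7 and 8 genes read higher in KO from the probe set used, at background signals. The other Hoxd8 probe set read 3.16 in KO and 3.15 in WT. A probe set shared by Hoxb8 and Hoxb7 went the other way, at 0.880 in KO and 2.79 in WT. Hoxa9, a regulator of blood progenitors, read 1.96 and 4.05, and Hoxb9 read 0.630 and 5.76.

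Groups 10 to 13, the genes of the lumbar and tail levels and of the outer limb, were all at background. Their 10 members ranged from 0.110 to 2.94 in KO and from 0.120 to 5.64 in WT. Hoxd13 and Hoxa13, which pattern the digits and the end of the body axis, read 2.74 and 0.580, and 1.85 and 5.64. The other Hoxd13 probe set went the other way, at 0.320 in KO and 2.44 in WT. Hoxa11 and Hoxd11, which act in the forearm and the kidney, read 1.99 and 4.40, and 0.30 and 0.500. Hoxc10 (2.94 and 0.120) and Hoxd10 (0.110 and 3.35), lumbar motor neuron genes, went opposite ways at signals that are both background. The others (Hoxa10, Hoxb13, Hoxc13 and Hoxd12) ranged from 0.640 to 2.93 in KO and from 0.680 to 2.31 in WT.

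The same held when every probe set was counted. The 33 genes have 48 probe sets, of which 3 were above background in KO, 5 in WT and 1 in both. Of the 11 genes with several probe sets, 6 had all of theirs differing in 1 direction between the arrays. These counts were not made over all probe sets or all named genes, so they show nothing particular to Hox genes.

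**Figure D2:**
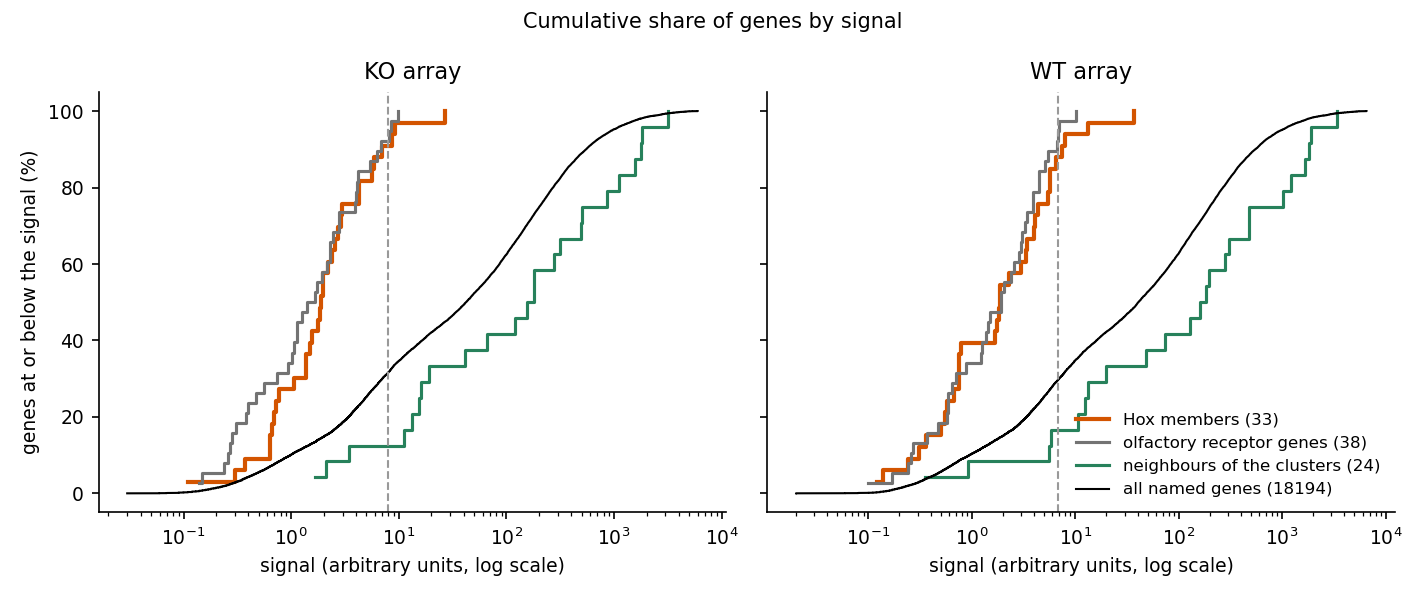
Cumulative percentage of genes (vertical axis) at or below a given signal (horizontal log axis, arbitrary units) in the KO and WT arrays for the 33 Hox genes, 38 olfactory receptor genes, 24 protein-coding neighbours of the clusters and all 18194 named genes. The dashed line is the background level, and the Hox and olfactory receptor curves run close together at signals mostly below it.

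Hox signals in one array followed those in the other only weakly. Spearman's rho between KO and WT was 0.16 across the 33 genes and 0.081 without Hoxa5, beside 0.39 across the 38 olfactory receptor genes. It was 0.76 across the 8093 genes with a mean signal in the Hox range and 0.99 across the 12058 genes above background in both arrays. These are descriptions across genes, which share the same pair of arrays and are not replicates, and the range of signals in each set differs.

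Between KO and WT the Hox genes showed no shared direction. On the log2(signal + 16) scale, 16 were higher and 17 lower in KO, and the median difference (KO minus WT) was -0.0074. Across all named genes 49.7% were lower in KO, and the median difference was 0.0011. None of the Hox genes was at least 2-fold apart on this scale, on which every count of genes 2-fold apart is made unless another pseudocount is named, where 0.154% of all named genes were at least 2-fold higher in KO and 0.0769% at least 2-fold lower. Among the 8093 genes in the Hox range of mean signal (0.40 to 32.2), those shares were 0.111% and 0.0989%. The pseudocount of 16 shrinks differences between such low signals. With a pseudocount of 1, 8 Hox genes were at least 2-fold higher and 8 lower, where 13.1% and 12.3% of the genes in that range and 15.8% and 23.7% of the 38 olfactory receptor genes were.

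The extremes of the Hox differences, Hoxc9 at 0.50 and Hoxd9 at -0.43, lie inside those of the olfactory receptor genes, -0.61 to 0.52. Next after Hoxc9 came Hoxc8 (0.29), Hoxd8 (0.28), Hoxc10 (0.23) and Hoxa2 (0.19), all at background in both arrays. On the lower side, Hoxd9 was followed by Hoxc6 (-0.42), Hoxb6 (-0.42), Hoxb9 (-0.39) and Hoxa5 (-0.31). Probe sets of the same gene, both arrays at background, differed with an SD of 0.16 over 1857 genes, which is a measure of probe noise and not of animals.

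By axial level, the median difference was 0.030 for groups 1 to 4 (7 of 10 higher in KO), -0.13 for groups 5 to 9 (6 of 13) and -0.021 for groups 10 to 13 (3 of 10). By cluster it was -0.13 for Hoxa (9 genes), -0.013 for Hoxb (9), 0.033 for Hoxc (7) and 0.045 for Hoxd (8). The median of groups 5 to 9 was -0.056 with the median of each gene's probe sets and -0.0096 without _x_at and _s_at probe sets, and that of groups 10 to 13 was -0.069 with the median.

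**Figure D3:**
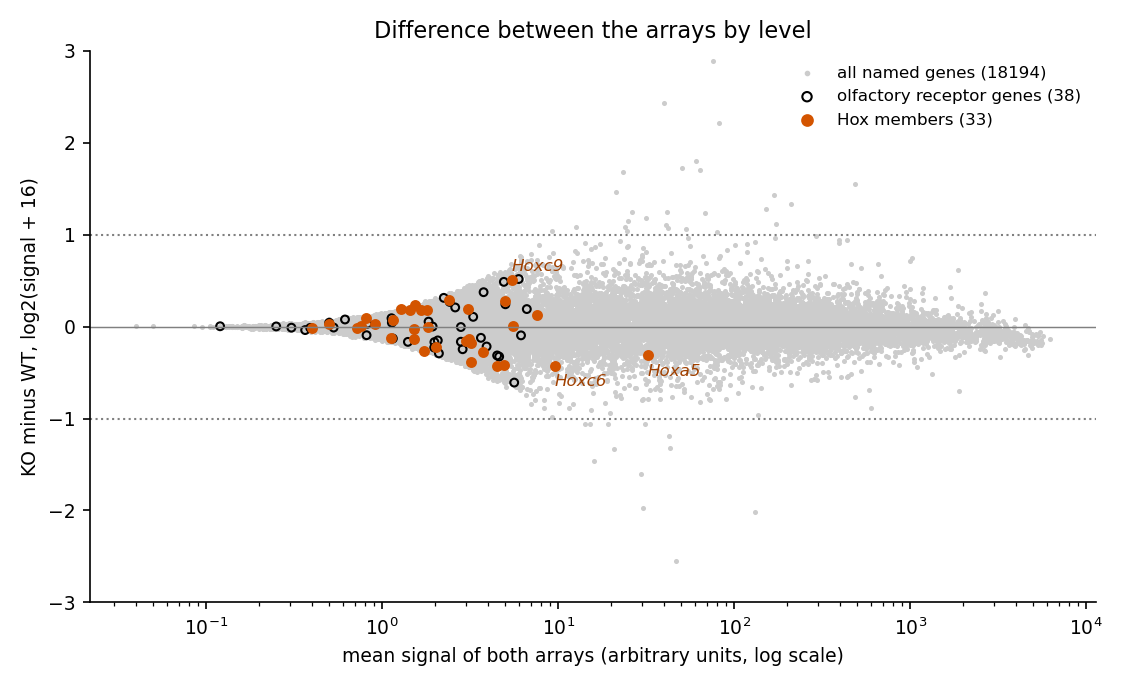
KO minus WT difference in log2(signal + 16) (vertical axis) against the mean signal of both arrays (horizontal log axis, arbitrary units) for all named genes (grey), olfactory receptor genes (open circles) and Hox genes (filled). Dotted lines mark a 2-fold difference, no Hox gene reaches either, and 4 genes lie outside the vertical range drawn.

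Most genes lying next to the clusters gave signals above background. Per the RefSeq gene table, the Hoxa cluster lies on chromosome 6, Hoxb on 11, Hoxc on 15 and Hoxd on 2. Of the 3 nearest measured protein-coding genes on each side of each cluster, 24 in all, 20 were above background in both arrays, where 66.3% of all named genes were. Hibadh, an enzyme of valine breakdown beside Hoxa, read 493 in KO and 482 in WT. Smug1, a DNA repair enzyme gene beside Hoxc, read 119 and 129, and Mtx2, a mitochondrial outer membrane protein gene beside Hoxd, 505 and 483. Cbx1 and Cbx5, both heterochromatin proteins, read 1803 and 1809 near Hoxb and 1106 and 1224 near Hoxc.

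Of the 4 neighbours that were not above background in both arrays, 2 are themselves homeobox genes of the posterior axis that lie next to group 13. Evx1, beside Hoxa13, read 1.67 in KO and 5.57 in WT, and Evx2, beside Hoxd13, read 3.43 and 5.79. Ttll6, a tubulin-modifying enzyme gene beside Hoxb13, read 13.1 and 0.910, above background in KO only. Calcoco2 was at background at 2.09 and 0.350. No neighbour was 2-fold apart on the log2(signal + 16) scale, which shrinks the difference of a gene as dim as Ttll6, and their differences ranged from -0.29 to 0.78.

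**Figure D4:**
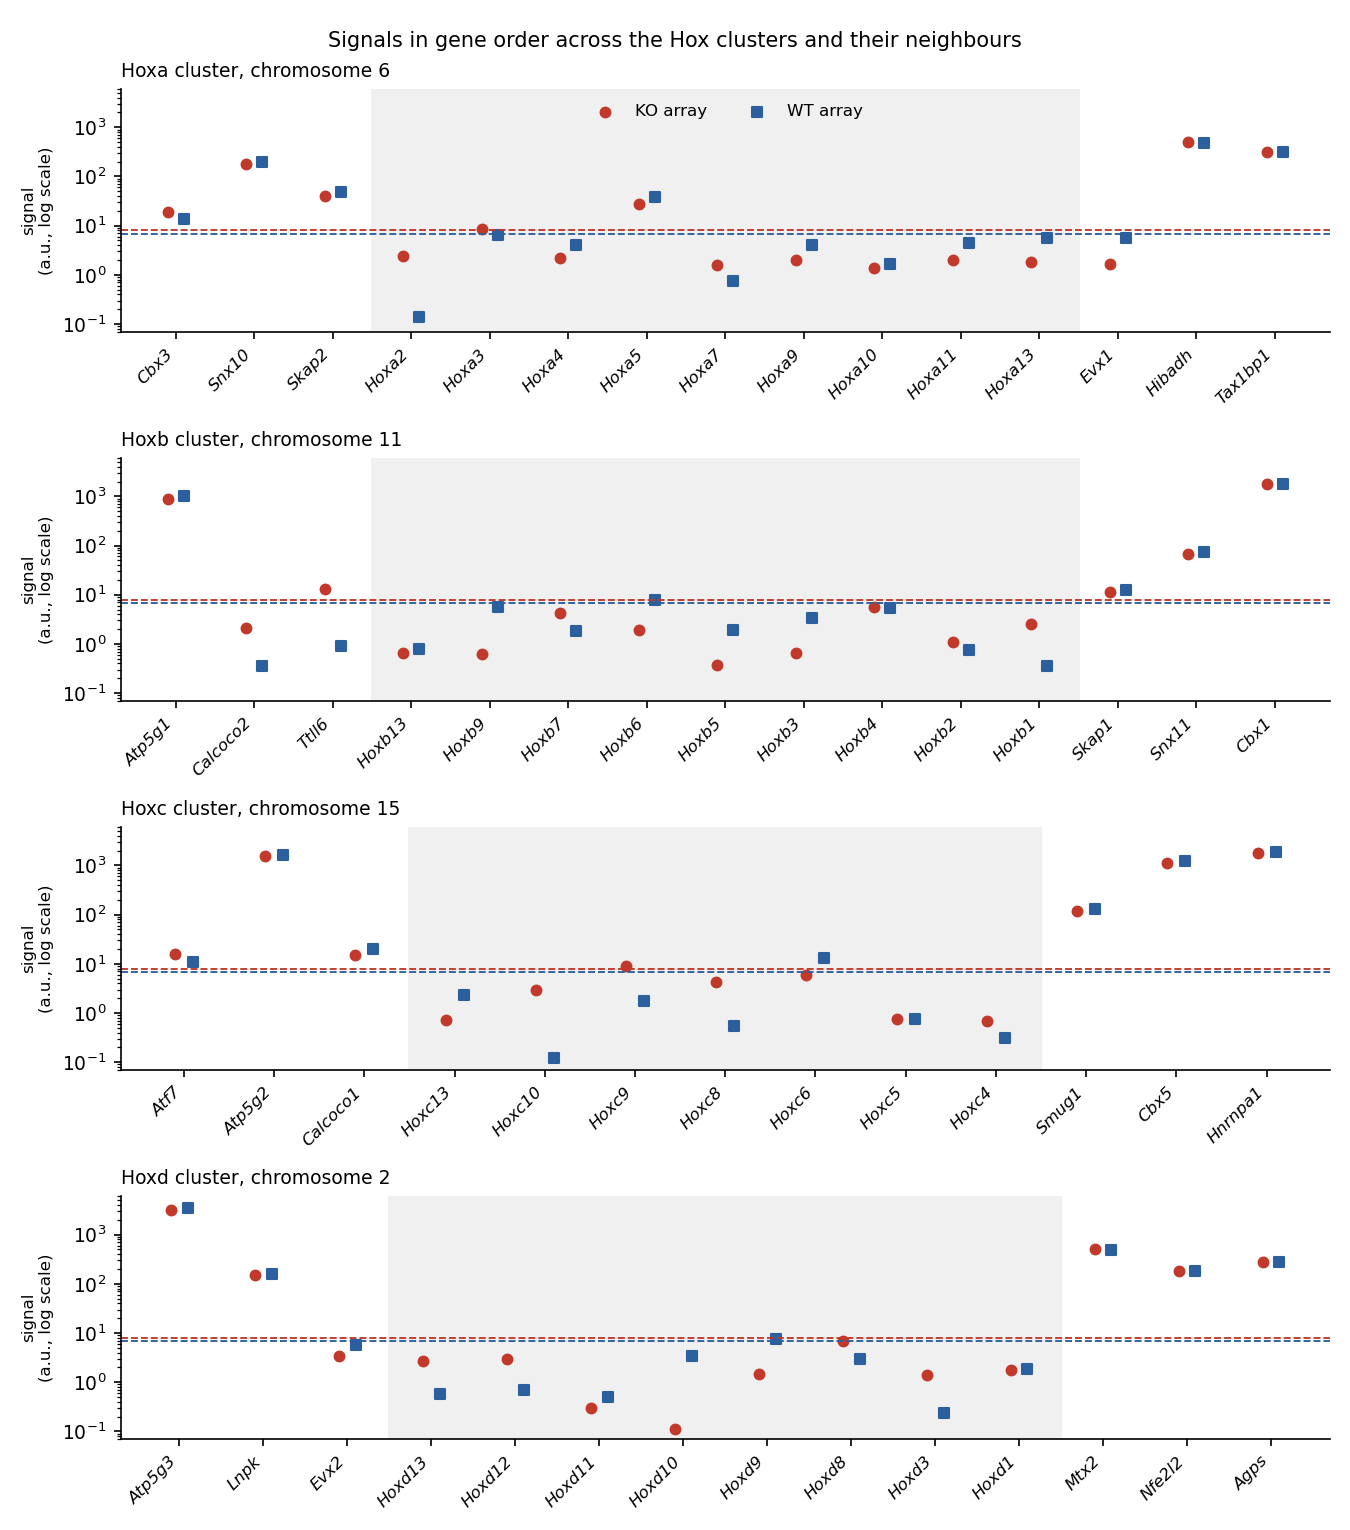
Signal (arbitrary units, log axis) in KO (circles) and WT (squares) for the measured protein-coding genes of each Hox cluster (shaded) and 3 measured neighbours on each side, in the order of their annotated starts and not to genomic scale; dashed lines are the background levels. Inside the shaded clusters almost all points lie below the dashed lines, and 20 of the 24 neighbours lie above them in both arrays.

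Non-coding RNAs from within the clusters could be read for 3 of 19 listed. Hoxa11os and Hoxd3os1 were at background in both arrays, at 4.88 in KO and 1.26 in WT, and at 3.64 and 0.230. Hoxb5os, transcribed opposite to Hoxb5, read 5.02 in KO and 9.24 in WT, above background in WT only.

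Genes for proteins that work with Hox factors, or act on their clusters, gave clear RNA signals in both brains. All 8 measured TALE homeodomain cofactors (Pbx, Meis and Pknox genes) were above background in both arrays, where 66.3% of all named genes were. None was 2-fold apart, and their median difference was 0.14. Meis2, a cofactor also used in the midbrain and eye, read 849 in KO and 632 in WT (0.42), Pknox2 read 228 and 191 (0.24), Meis1 204 and 177 (0.19) and Pbx4 24.5 and 19.8 (0.18).

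All 17 measured chromatin regulators were above background too, beside 66.3% of all named genes in both arrays. Their median difference was 0.012, and none was 2-fold apart. This list holds Polycomb proteins, which keep Hox clusters silent, and the Trithorax methyltransferase Kmt2a, which keeps them active. Ezh2, the Polycomb methyltransferase, read 1624 in KO and 1507 in WT. Kdm6a, an X-linked demethylase of the Polycomb mark, differed most at 332 and 196 (0.72), followed by Ezh1 (0.52), Phc2 (0.28) and Kdm6b (0.21). Ezh2 is named here after its value was seen.

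Regulators of Hox genes by axial level and retinoic acid gave uneven signals, and not all on the list switch Hox genes on. Of 15 measured axial and retinoid regulators, 7 were above background in both arrays, where 66.3% of all named genes were, and 5 in neither. The caudal homeobox genes Cdx1, Cdx2 and Cdx4, which activate trunk Hox genes (picked here after seeing their values), all lay at background, at 0.0700 to 4.55 in KO and 0.390 to 4.37 in WT. Aldh1a2, the enzyme that makes retinoic acid in trunk mesoderm, read 8.73 in KO and 2.42 in WT (0.42), above background in KO only. Rarg, a retinoic acid receptor, read 27.4 and 16.3 (0.42). Cyp26b1, next in size after Rarg and named after its value was seen, read 11.3 and 4.68 (0.40), above background in KO only.

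The list's members that differed most belong to the midbrain-hindbrain junction. Fgf8, which holds Hox expression back from the first hindbrain segment, read 102.9 in KO and 18.2 in WT (1.80). Gbx2, of the anterior hindbrain, read 25.6 and 6.89 (0.86). On the log2(signal + 16) scale Fgf8 was the list's only gene 2-fold apart, but the plain signals of Gbx2 differ by more than that. Its WT signal lies barely above the WT background level of 6.87, so that plain ratio is uncertain. The list median was 0.077.

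Markers of brain regions in front of Hox expression were measured in both arrays. Of 15 forebrain and midbrain genes, 11 were above background in both, with a median difference of 0.051. That count is near the share of all named genes above background in both arrays (66.3%), and it sets these markers apart from no other genes. Otx2, which defines the forebrain and midbrain and is named here after its value was seen, read 1819 in KO and 2204 in WT. En2, of the midbrain and first hindbrain segment, read 1291 and 761 (0.75), and En1, of the same region, read 61.4 and 20.1 (1.10), the only one 2-fold apart on the log2(signal + 16) scale. Lhx2 (59.3 and 104, -0.67) and Barhl2 (36.2 and 64.6, -0.63), transcription factor genes of the forebrain, differed the other way.

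Hindbrain genes outside the Hox family gave a mixed picture. Of 15 on the list, 12 were above background in both arrays, where 66.3% of all named genes were, and 2 in neither. The median difference was 0.076. Several of them, such as Irx3 (1261 and 1459), are also expressed outside the hindbrain. Egr2 (Krox20), which defines the third and the fifth hindbrain segments and directly activates Hoxa2 and Hoxb2, was at background at 6.44 in KO and 3.30 in WT. Irx3 and Egr2 were chosen after their values were seen. Atoh1, of the rhombic lip that forms the dorsal edge of the hindbrain, read 38.3 and 9.61 (1.08).

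Other members of the hindbrain list that differed went both ways. Phox2a, of brainstem and cranial motor neurons, read 22.2 in KO and 7.20 in WT (0.72). Atoh1 was the list's only gene 2-fold apart on the log2(signal + 16) scale, but the plain signals of Phox2a differ by more than that. The WT signal of Phox2a lies just above the WT background level of 6.87, so that plain ratio is uncertain. Ptf1a, of inhibitory neuron progenitors, read 0.870 and 11.3 (-0.69), above background in WT only. Epha4, a receptor that sharpens segment borders, read 105 and 177 (-0.67).

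Lists of tissues that carry trunk Hox genes held both bright and dim members. Of 11 spinal cord and motor neuron genes, 5 were above background in both arrays and 5 in neither, where 66.3% of all named genes were above it in both, and the median difference was -0.036. The bright members were Slit2, a midline guidance cue (463 in KO, 475 in WT), Foxp1 (346 and 366) and Isl1, which cranial motor and sensory neurons also express (317 and 256). Isl2 (19.5 and 16.04) and Lhx1 (14.6 and 15.4) were above background at lower signals, and Chat (6.87 and 7.80) in WT only. The 5 at background in both were Mnx1 (0.140 in KO, 0.190 in WT), Olig2 (0.420 and 2.69), Lhx3 (0.630 and 6.41), Lhx4 (3.03 and 3.37) and Slc18a3 (1.23 and 1.49). Among the genes above background in at least 1 array, Isl1 differed most (0.29), followed by Isl2 (0.15), Foxp1 (-0.076) and Chat (-0.058).

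Where 66.3% of all named genes were above background in both arrays, somite and trunk mesoderm genes were in 5 of 13 cases. In neither array were 6 above it, and the median difference was 0.072. Those above it in both were Twist1 (102 in KO, 82.0 in WT), Tbx18 (33.7 and 49.0), Tcf15 (28.6 and 26.5), Uncx (26.4 and 36.5) and Osr1 (17.5 and 12.2). Tbx6, of presomitic mesoderm, read 6.27 and 8.003, above background in WT only. The 6 at background in both (Meox1, Meox2, Myf5, Pax1, Pax9 and Foxc2) ranged from 0.520 to 6.57 in KO and from 0.0500 to 5.35 in WT. Mesp2, a gene of somite formation, read 16.6 and 4.81 (0.65), above background in KO only. Tbx18 (-0.39), Uncx (-0.31) and Twist1 (0.27), which head mesenchyme or brain also express, came next. Neural crest and pharyngeal arch genes were above background in both in 4 of 11 cases, beside the same 66.3%, and in neither in 6, with a median of -0.019. Those above it in both were Prrx1 (0.23), Tfap2a (0.19), Ets1 (0.18) and Barx1 (-0.019). Alx4 (-0.055), above background in WT only, was next furthest apart after Ets1. Sox10, which defines migrating crest and was singled out after its value was seen, was at background at 1.75 and 5.47.

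Of 16 homeobox genes next to the clusters or related to them, 12 were at background in both arrays, as most Hox genes were. En2, En1 and Gbx2 were above it in both, where 66.3% of all named genes were, and Gsx1 in WT only. Gsx1, of ventral forebrain and dorsal hindbrain progenitors, read 1.07 in KO and 15.5 in WT (-0.88). The list median was -0.011.

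**Figure D5:**
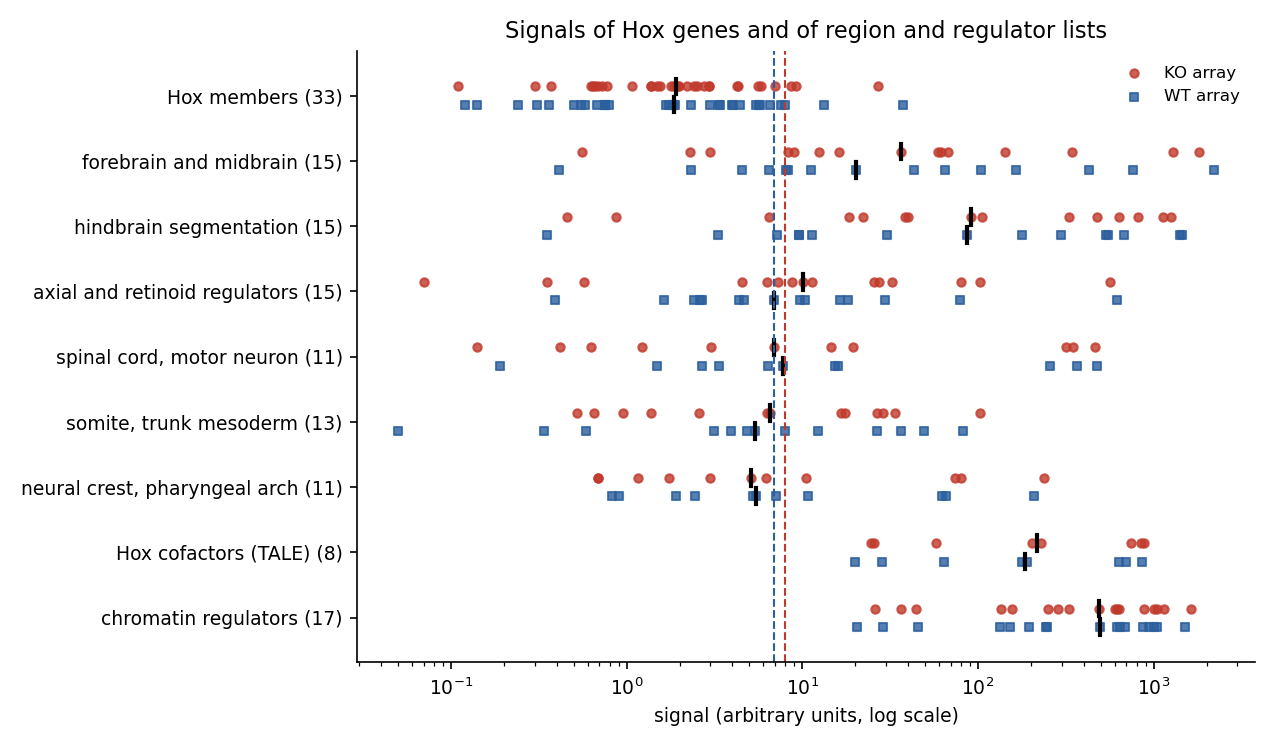
Signal (arbitrary units, log axis) of the 33 Hox genes and of the measured members of 8 gene lists (number in brackets) in the KO array (circles, upper row) and the WT array (squares, lower row); black bars are medians and dashed lines the background levels. The Hox medians of 1.90 and 1.87 lie below background, and those of the cofactor list (216 in KO, 184 in WT) and the chromatin list (490 and 496) lie well above it.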

How the data were processed

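Total RNA of 1 KO and 1 WT brain sample was hybridised to 1 array each, and samples were grouped by title. The authors deposited linear probe set intensity values, made with Affymetrix Expression Console per the submitters' processing notes; their summary algorithm is not given in the sources used here. With the lowest and highest 2% of probe sets left out, the mean was 100 in both arrays, so the authors' values share a global scale. Both arrays were brought to a common median (ratio 1.001), and differences are KO minus WT of log2(intensity + 16), which understates changes of low signals.

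Of 45101 probe sets, 34958 had 1 symbol in the platform annotation and 932 several. A gene was read from its probe set with the highest mean, and all 33 Hox symbols matched RefSeq (GRCm38.p6) by Entrez number. No test was possible. A gene was above background if its signal passed the 95th percentile of olfactory receptor probe sets of that array. No fold was given where both signals were at or below it, and a bound was taken against it where 1 was.

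The rule for named genes took every Hox gene, singly or in a range. From each list it took members at least 2-fold apart, and up to 4 with the largest difference, if above background in 1 array. The members and lists were chosen with earlier results of these data known. The list of genes next to the clusters (17 of 21 measured) had 13 genes above background in both arrays and a median difference of -0.11, led by Ttll6 (0.78), Skap2 (-0.19), Calcoco1 (-0.18) and Hnrnpa2b1 (-0.18); the neighbours described were instead taken from the RefSeq order, chosen after the data were seen. Scaling, the choice of probe set and the 2-fold call were checked on altered or made-up data. Differences there are recovered by construction, so the check says nothing of errors in these arrays. The background level and the bounds were not simulated. Alternatives covered scaling, pseudocount, probe set rule, background level and fold threshold. The tools were Python 3.11.15 with pandas 2.3.3, numpy 2.4.6, statsmodels 0.14.6, scipy 1.17.1 and, for plots, matplotlib 3.10.9.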

Additional observations from a re-analysis of the deposited data

How the results depend on the processing

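No paired analysis was possible because there is only 1 array for KO and 1 for WT, and leaving out a replicate was not possible either. A value was taken as moved if a median or difference shifted by more than 0.16, the SD between probe sets of 1 gene at background, or a count by over 1.5 times; this is a wide margin for a median over genes. By that measure 195 of 238 values under alternatives had not moved. The Hox median difference stayed between -0.047 and -0.0020 under 7 alternatives, and 17 or 18 of the genes were lower in KO.

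The number of Hox genes above background was 8 in WT with the 90th percentile, 1 in KO and 2 in WT with the 99th, and 0 in both with the median of named genes (45.1). With vomeronasal and taste receptors (40 probe sets), chosen after seeing the data, it had not moved. A pseudocount of 1 gave 8 Hox genes at least 2-fold higher and 8 lower in KO, and medians of 0.30, -0.46 and -0.19 for groups 1 to 4, 5 to 9 and 10 to 13. All named genes at least 2-fold apart made up 11.5% at a pseudocount of 1, 0.071% at 64 and, at 1.5-fold, 1.57%. The non-coding RNA median was 0.27, and 1.38 and 0.075 at pseudocounts of 1 and 64. The median of Xist and the Y-linked genes (-3.06) was -5.62 and -1.58 there, -0.46 with the median probe set and -1.15 with the mean. Without _x_at and _s_at probe sets the Hoxa5 difference was -0.0096, from its probe set at background. Hoxa3 was lower in KO with the median (-0.10) or mean (-0.069) of its probe sets. The pseudocount acts on low signals by construction; the other causes were not tested. Signals at or below background in both arrays limit what is shown of 27 of the 33 Hox genes.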
